A study of Rattus norvegicus with 12 samples.

Results

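The genes of the Wnt pathway were examined in rat whole ganglionic eminence at embryonic day 14, the paired ventral swellings of the forebrain from which the striatum and many interneurons arise. The set held 48 genes of 14506 measured: every gene whose symbol begins with Wnt, Fzd, Sfrp, Dkk or Rspo and a digit, together with Lef1, the Tcf genes, Axin1, Axin2, Ctnnb1, Apc, Lrp5, Lrp6, Nkd1, Nkd2 and Wif1. They were chosen by symbol and not by any measured value. By role they were 17 Wnt ligands, 10 Frizzled receptors and Lrp coreceptors, 3 R-spondins, 9 secreted inhibitors, 6 cytoplasmic effectors and inhibitors, and 3 Lef and Tcf factors. Of the 48 genes, 47 had 1 probe set and Tcf7l1 had 3. Tcf7l2 had no probe set annotated to it alone and was not analysed here.

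Wild type and homozygous embryos were compared, with 6 embryos and 6 arrays each. The homozygous embryos carried BACHD, a bacterial artificial chromosome that carries full-length human huntingtin, here with 96 CAG repeats, the expansion that causes Huntington disease. The transgene is a human gene with its own regulatory sequences, added to the rat's own huntingtin gene. All embryos came from 3 time-bred transgenic dams opened on 1 day, so the wild type embryos too developed in transgenic dams. The dam and the sex of each embryo were not used here. With 6 embryos per genotype from 3 dams, some embryos of a genotype must share a dam. The p-values measure the spread between embryos and take no account of this. The study's stated question was which transcripts differ early in transgenic embryos.

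Wnt proteins are secreted, lipid-bearing ligands that bind Frizzled receptors and the coreceptors Lrp5 and Lrp6. Binding halts a cytoplasmic complex built on Axin and Apc that otherwise has β-catenin, the product of Ctnnb1, destroyed, and the spared β-catenin joins Lef and Tcf factors on target genes. Sfrp, Dkk and Wif1 proteins hold the ligands or coreceptors back, R-spondins keep receptors on the cell surface, and Axin2 and Nkd1 are targets that damp the signal in turn. In the embryonic forebrain, many Wnt ligands come from the cortical hem at the dorsal midline, while the eminences lie ventrally.

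By the brightest probe set of each gene, no Wnt gene differed between the genotypes past the threshold. The threshold used here was an adjusted p of 0.05 in limma, with Benjamini-Hochberg adjustment over all 29214 probe sets. The count was 0 of 48 genes, where 0.469% of all genes (68 of 14506) and 0.424% of all probe sets (124) passed. The lowest adjusted p among those 48 probe sets was 0.113 in limma, for Tcf7l1. A second probe set of Tcf7l1 passed (adjusted p = 0.0453 in limma), with no overlap between the genotypes. At an unadjusted p under 0.05, 5 of the 48 were higher in homozygous embryos (Tcf7l1, Wnt3a, Sfrp4, Wnt10a and Wnt9b), where 9.18% of all genes were, and 1 was lower (Fzd1), where 5.93% were. By the brightest probe sets, the 6 values of one genotype lay wholly beyond those of the other in 0 of the 48. Such a separation was seen in 2.2% of all genes. Differences are log2 values of homozygous minus wild type embryos throughout, with the standard error of the difference. They lay above 0 in 34 of the 48 genes with a median of 0.03, against 61.4% of all genes with a median of 0.02.

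For the brightest probe sets of the 48 genes, the standard deviation within a genotype ran from 0.0184 to 0.215, with a median of 0.0864. Standard errors of the differences had a median of 0.0539. Over these probe sets the 95% intervals of the differences lay between -0.29 and 0.32, or changes from -18.4% to 24.5%. The third probe set of Tcf7l1 reached beyond that range, with an interval from -0.98 to -0.10. The intervals hold for single genes and are not widened for their number. In bulk tissue, fewer cells of a type and less RNA per cell cannot be told apart.

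**Figure D1:**
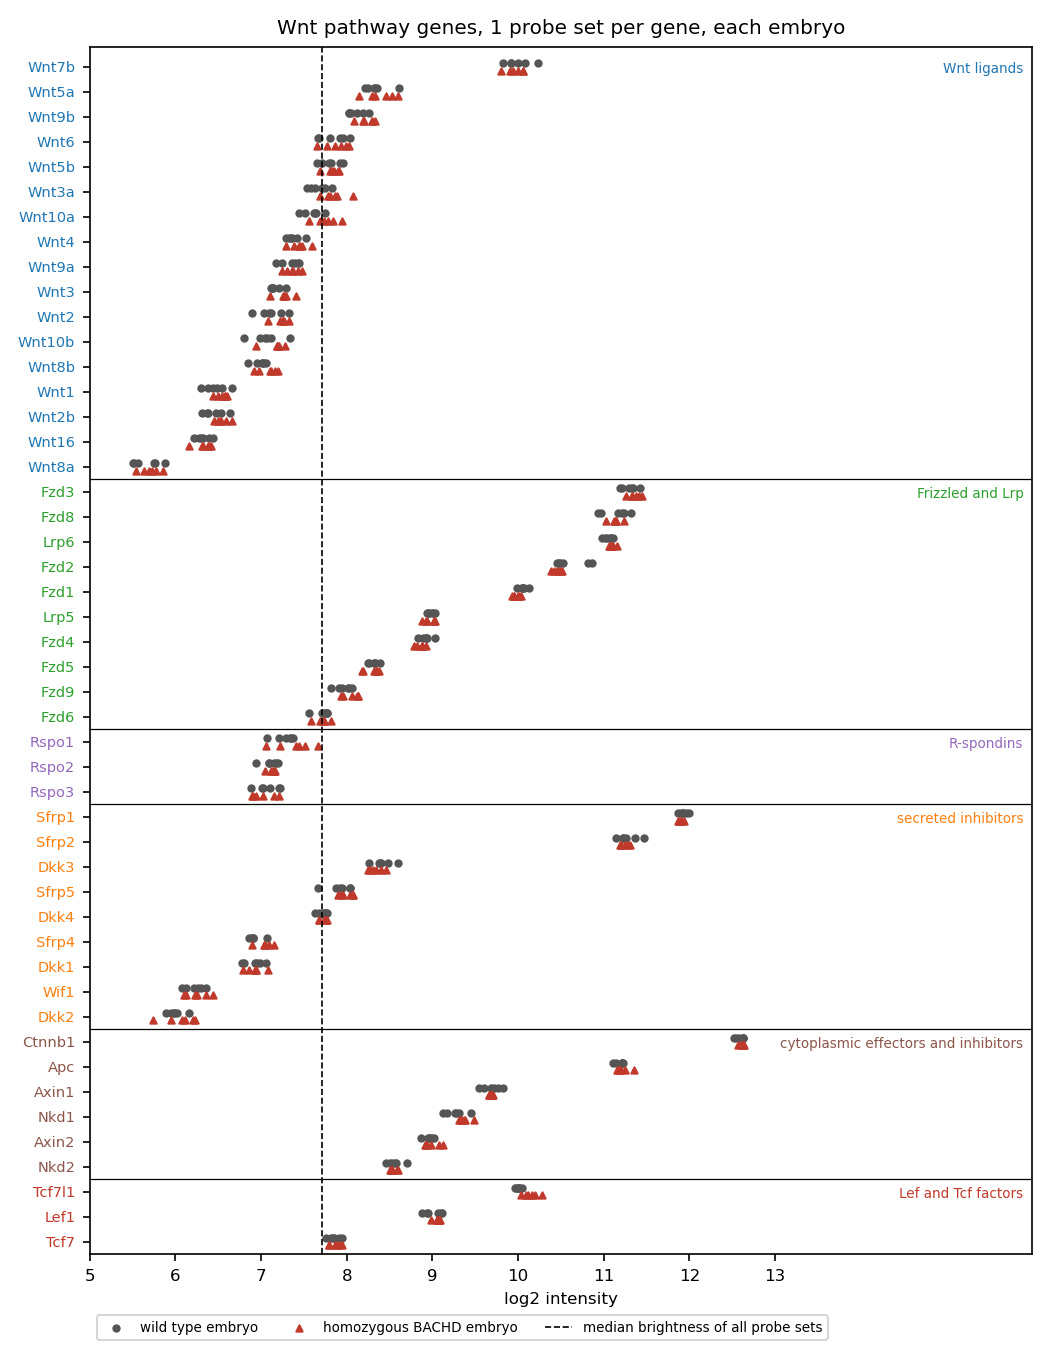
Log2 intensity (horizontal axis) of the brightest probe set of each of the 48 Wnt genes (rows, grouped by role) in each wild type embryo (circles) and homozygous BACHD embryo (triangles); the dashed line is the median brightness of all probe sets, 7.71. The 2 genotypes overlap in every row, and 11 of 17 ligands lie left of the line while every receptor lies right of it.

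The medians of the 12 arrays lay between 7.67 and 7.76. The probe set for rat huntingtin stood between 9.77 and 10.07 in wild type and between 10.16 and 10.40 in homozygous embryos, with no overlap, in keeping with the labels, and whether its probes also read the human transcript was not tested. Wild type 1 and 2 stood apart: both lay outside the range of the other 4 wild type embryos, on the same side, in 40.6% of all genes and in 23 of the 48 Wnt genes (9 above and 14 below). Without them 12 of the 48 differences changed sign, and several differences are also given without them. Dim probe sets also read slightly higher in homozygous embryos. Among genes dimmer than the median probe set, 76.1% had a difference above 0, with a median of 0.05, against 51.3% and a median of 0.00 among brighter genes. Over the probe sets dimmer than that median, array medians lay between 6.18 and 6.28 in wild type and between 6.21 and 6.33 in homozygous embryos. Over the brighter ones they lay between 9.69 and 9.74 and between 9.70 and 9.73. The brightness of different probe sets cannot be read as amounts of different transcripts.

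Of the 17 Wnt ligands, 16 had a difference above 0, with a median of 0.07 and a range from -0.04 to 0.18, and none passed. The exception was Wnt7b. The 11 ligands dimmer than the median probe set were all above 0 (median 0.09). Of all genes dimmer than it, 76.1% lay on that side. In brightness bins with mean levels from 5.80 to 7.12, the lower quartile of the differences of all genes also lay above 0. The count was lower under other scalings: 12 of 17 ligands lay above 0 when arrays were centred on their medians, 11 after quantile normalization, 11 after cyclic loess and 10 with the difference between dim and bright probe sets of each array as a covariate. Of all 48 Wnt genes, 22, 24, 23 and 27 then lay above 0, and of all genes 40.6%, 48.5%, 47.8% and 55.5%. The ligand median stayed above 0 under these scalings, at 0.03, 0.02, 0.03 and 0.03. The median of all genes, bright ones included, was then -0.02, -0.0025, -0.0037 and 0.01. A median of dim genes alone was not taken under these scalings, so the ligands were not compared there with genes of like brightness. In every setting tried, 8 ligands kept a difference above 0: Wnt2b, Wnt3, Wnt3a, Wnt4, Wnt5a, Wnt8b, Wnt9b and Wnt10a. The mean over the ligands lay between 7.31 and 7.45 in wild type arrays and between 7.35 and 7.52 in homozygous ones. It was lowest in wild type 2 and highest in homozygous 3, at 7.31 and 7.52, and the dimmer probe sets had medians of 6.18 and 6.33 there. The part of this shift of dim probe sets in the ligand differences was not tested beyond these scalings.

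Wnt3a, a ligand of the cortical hem needed for the hippocampus to form, had the largest difference of the 48 genes by their brightest probe sets. Its lowest, median and highest values were 7.53, 7.67 and 7.82 in wild type and 7.69, 7.83 and 8.07 in homozygous embryos. The ranges overlapped, but all 6 homozygous embryos lay above the wild type median and 3 lay above every wild type value. The difference was 0.18 ± 0.0649 (SE, n = 6 and 6), or 13% higher (95% interval 2.64% to 24.5%), with an adjusted p of 0.232 in limma and an exact permutation p of 0.026 (2-sided). Without wild type 1 and 2 it was 0.14 ± 0.0733.

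Wnt10a, known for its part in teeth, hair and skin, read 7.44, 7.62 and 7.75 (lowest, median and highest) in wild type and 7.56, 7.76 and 7.94 in homozygous embryos. Wild type 1 and 2 were the lowest of the 12 embryos at 7.44 and 7.51, and 3 homozygous embryos lay above every wild type value. The difference of 0.16 ± 0.0655 (adjusted p = 0.285 in limma, exact permutation p = 0.0519) was 0.10 ± 0.066 without those 2 embryos. Wnt9b, a ligand of kidney and face development, read 8.02, 8.09 and 8.26 in wild type and 8.09, 8.25 and 8.33 in homozygous embryos. All 6 homozygous embryos lay above its wild type median, and the difference was 0.12 ± 0.0531 (adjusted p = 0.298 in limma, exact permutation p = 0.0455). Without wild type 1 and 2 the difference of Wnt9b was 0.09 ± 0.0572.

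The 2 brightest ligand probe sets differed less. Wnt7b, made by forebrain neurons and progenitors and needed for the vessels that enter the brain, read 9.83, 9.96 and 10.23 in wild type and 9.80, 9.97 and 10.06 in homozygous embryos. Wild type 1 and 2 were the highest at 10.23 and 10.08, and the difference turned from -0.04 ± 0.0641 to 0.04 ± 0.0518 without them. Wnt5a, the main ligand that acts without β-catenin, read 8.22, 8.32 and 8.61 in wild type and 8.15, 8.40 and 8.60 in homozygous embryos, with 1 homozygous embryo below every wild type value and 0 above. Its difference was 0.05 ± 0.0791 (adjusted p = 0.791 in limma), and 0.11 ± 0.077 without wild type 1 and 2.

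The other 12 ligands had differences between 0.01 for Wnt16 and 0.12 for Wnt2, with adjusted p values from 0.391 to 0.969. They hold the hem ligands Wnt2b, at 0.09 ± 0.0591, and Wnt8b, at 0.09 ± 0.056. Wnt8b read 6.85, 7.01 and 7.06 in wild type and 6.92, 7.11 and 7.20 in homozygous embryos, and 4 homozygous embryos lay above every wild type one. Wnt1, the ligand of the midbrain and hindbrain boundary, was at 0.07 ± 0.0595, or 0.01 ± 0.0574 without wild type 1 and 2, its lowest values. Wnt3, a close relative of Wnt3a, was at 0.10 ± 0.0518. In the assembly GRCr8, 4 pairs of these ligands are neighbours among the protein-coding genes. Their differences were 0.18 for Wnt3a and 0.02 for Wnt9a, 0.12 for Wnt9b and 0.10 for Wnt3, 0.11 for Wnt10b and 0.07 for Wnt1, and 0.16 for Wnt10a and 0.03 for Wnt6. Without wild type 1 and 2, Wnt10b was at 0.02 ± 0.0735, Wnt2 at 0.04 ± 0.0618 and Wnt9a at -0.04 ± 0.0514, and 13 of 17 ligands lay above 0.

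**Figure D2:**
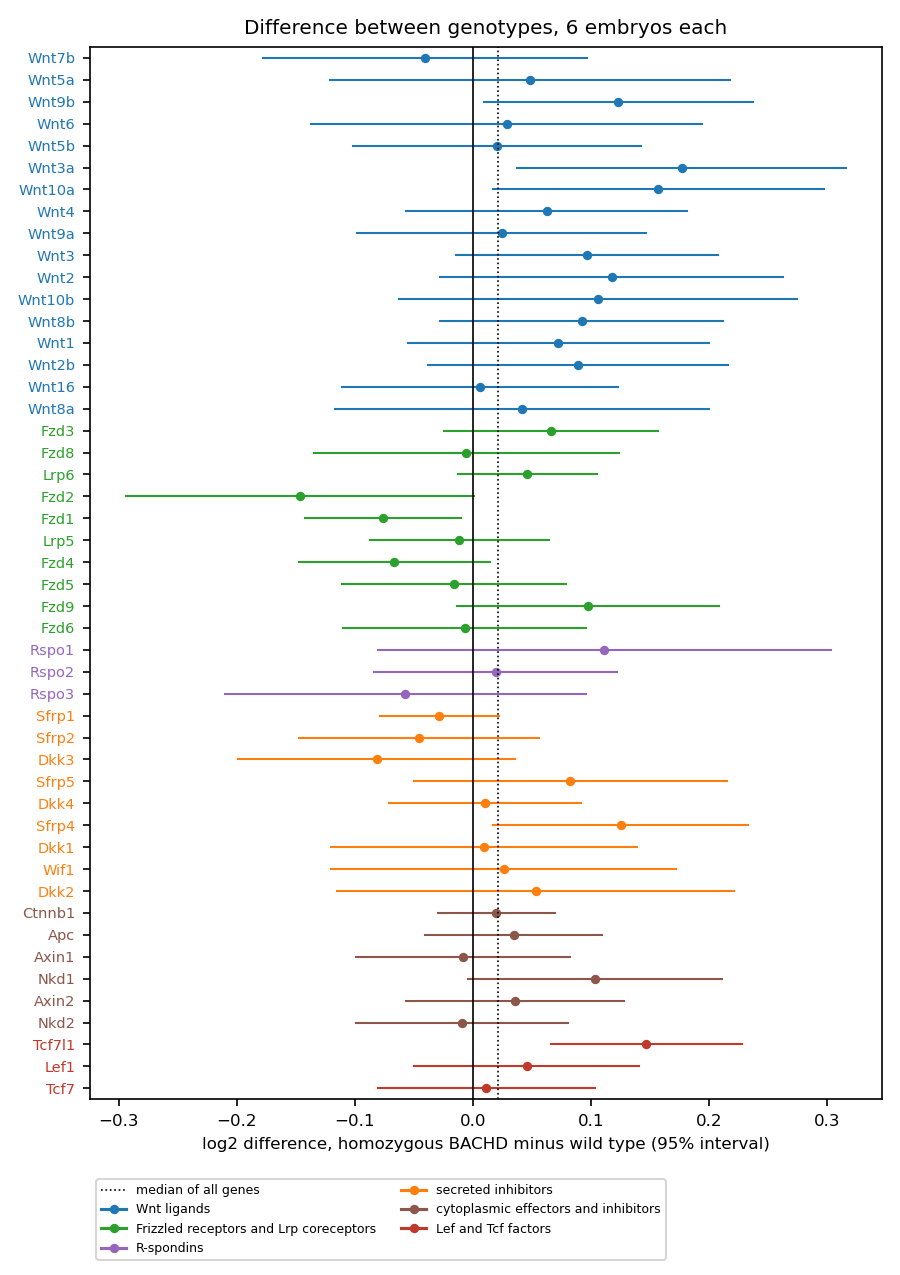
Difference between the genotypes on the log2 scale (horizontal axis, homozygous BACHD minus wild type, 6 embryos each) with its 95% interval from limma for each of the 48 Wnt genes (rows, coloured by role); the dotted line is the median of all genes, 0.02. The brightest probe set of each gene is shown. Of 17 ligands 16 lie right of 0, a count of between 10 and 12 under other scalings. Of 10 receptors 7 lie left of 0, and the intervals stay between -0.29 and 0.32.

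**Figure D3:**
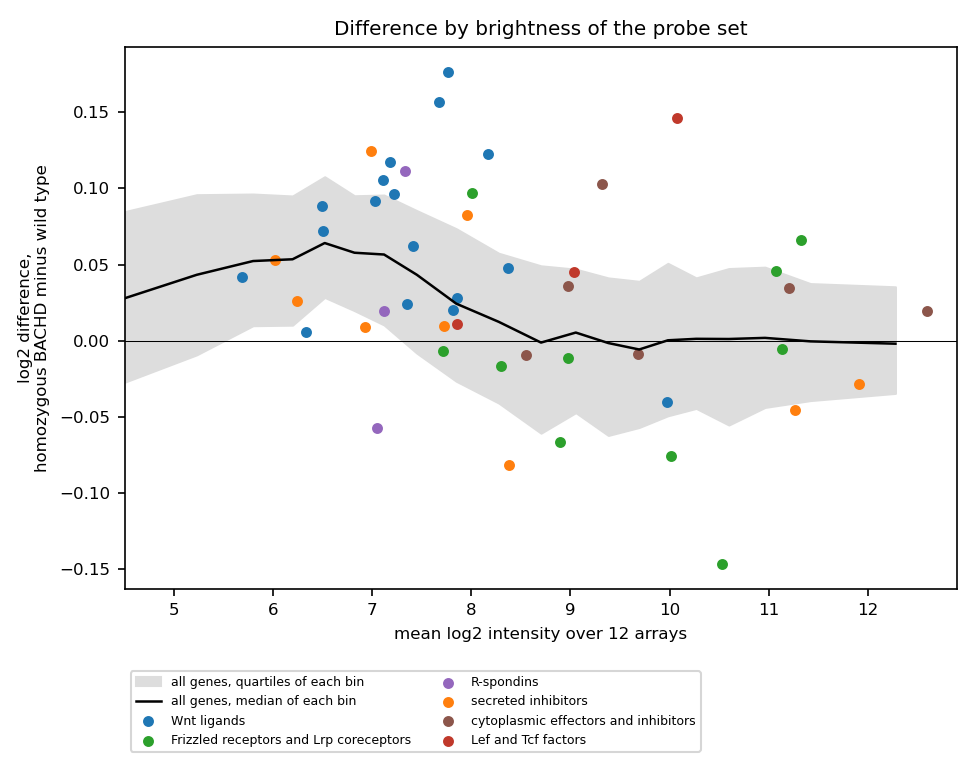
Difference between the genotypes (vertical axis, log2) against mean log2 intensity over the 12 arrays (horizontal axis); points are Wnt genes coloured by role, the line is the median of all genes in each brightness bin and the band runs from their lower to their upper quartile. The line lies above 0 for dim genes and near 0 for bright ones, and most ligands lie in the dim range. Members lie outside the band on both sides of 0, with Tcf7l1 and Nkd1 above it and Fzd1 and Fzd2 below it among others. A band between quartiles leaves many of all genes outside it on each side by definition.

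Of the 10 receptors and coreceptors, 7 had a difference below 0, with a median of -0.01, and none passed. Fzd1, Fzd2, Fzd4, Fzd5, Fzd6, Fzd8 and Lrp5 lay below 0, and Fzd3, Fzd9 and Lrp6 above. All 10 probe sets were brighter than the median, where 51.3% of genes lay above 0. The count below 0 was 4 without homozygous 2 and 6 without wild type 1 and 2. The direction was the same in every setting tried for Fzd1, Fzd2, Fzd4, Fzd3, Fzd9 and Lrp6, and in none of them did a receptor pass.

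Fzd1 read 9.98, 10.05 and 10.13 (lowest, median and highest) in wild type and 9.92, 9.98 and 10.04 in homozygous embryos. All 6 homozygous embryos lay below the wild type median and 3 lay below every wild type value. The difference was -0.08 ± 0.0308, with an interval from -9.37% to -0.674% (adjusted p = 0.277 in limma, exact permutation p = 0.0195), and -0.05 ± 0.0302 without wild type 1 and 2.

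Fzd2 and Fzd8 are described because wild type 1 and 2 set their values, a choice made for Fzd2 after its values were seen. Fzd2 read 10.86 and 10.82 in wild type 1 and 2, from 10.45 to 10.52 in the other 4 wild type embryos and from 10.38 to 10.51 in homozygous embryos. The difference of -0.15 ± 0.0688 (unadjusted p = 0.051, adjusted p = 0.336 in limma) was the lowest of the 48 genes by their brightest probe sets. Without those 2 embryos it was -0.03 ± 0.0293. Fzd8, a receptor of forebrain progenitors, showed the opposite. It read 10.97 and 10.93 in wild type 1 and 2, from 11.16 to 11.32 in the other wild type embryos and from 11.03 to 11.24 in homozygous embryos. Its difference was -0.01 ± 0.0602 with all embryos and -0.10 ± 0.0382 without those 2 (adjusted p = 0.228 in limma).

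Fzd3, a receptor that guides growing axons, had the brightest probe set of the role and read 11.18, 11.31 and 11.42 in wild type and 11.26, 11.36 and 11.45 in homozygous embryos. The ranges overlapped, and wild type 1 and 2 were the lowest of the 12 embryos at 11.18 and 11.21. The difference was 0.07 ± 0.0423 (adjusted p = 0.469 in limma), and 0.02 ± 0.037 without those 2. The coreceptors differed little: Lrp6 by 0.05 ± 0.0274 and Lrp5 by -0.01 ± 0.0354. The intervals reached from -0.877% to 7.53% for Lrp6 and from -5.88% to 4.57% for Lrp5.

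The 3 R-spondins were all dimmer than the median probe set. Rspo1 read 7.07, 7.32 and 7.38 in wild type and 7.06, 7.43 and 7.66 in homozygous embryos, with 4 homozygous embryos above every wild type value and 1 below. Its standard error was the largest of the 48 genes by their brightest probe sets. The difference was 0.11 ± 0.0895 (adjusted p = 0.565 in limma). It was 0.04 ± 0.0957 without wild type 1 and 2, and with 1 array left out it ran from 0.06 (without homozygous 3) to 0.18 (without homozygous 1). Rspo2 read 6.94, 7.12 and 7.19 in wild type and 7.04, 7.14 and 7.16 in homozygous embryos, whose values all fell within the wild type range. Its difference was 0.02 ± 0.048, and that of Rspo3, a hem gene, was -0.06 ± 0.0713.

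Of the 9 secreted inhibitors, 6 lay above 0 and 3 below, with a median of 0.01. Sfrp1, a Frizzled-like protein of the progenitor zone that binds Wnt proteins, read 11.87, 11.93 and 11.99 in wild type and 11.86, 11.90 and 11.93 in homozygous embryos. It was among the most precise of the 48, and its difference of -0.03 ± 0.0236 had an interval from -5.33% to 1.54% (adjusted p = 0.576 in limma). Sfrp2, its relative, read 11.14, 11.25 and 11.47 in wild type and 11.19, 11.23 and 11.30 in homozygous embryos. The 2 highest values were wild type 1 and 2 at 11.37 and 11.47, and the difference went from -0.05 ± 0.0475 to 0.02 ± 0.0314 without them.

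Sfrp4 had a dim probe set that read 6.86, 6.90 and 7.07 in wild type and 6.90, 7.05 and 7.15 in homozygous embryos. Wild type 1 alone stood at 7.07, the other 5 wild type embryos lay at 6.90 or below, and 5 of 6 homozygous embryos lay above the wild type median. The difference was 0.12 ± 0.0506 (adjusted p = 0.274 in limma, exact permutation p = 0.0433), and 0.16 ± 0.052 without wild type 1 and 2 (adjusted p = 0.15). The 4 Dkk genes, whose products act on Lrp coreceptors except for the divergent Dkk3, had differences between -0.08 for Dkk3 and 0.05 for Dkk2. Wif1 was at 0.03 ± 0.0681 and Sfrp5 at 0.08 ± 0.0619. Dkk3 was at -0.02 ± 0.0487 and Sfrp5 at 0.01 ± 0.0494 when wild type 1 and 2 were left out.

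The 6 cytoplasmic effectors and inhibitors were all brighter than the median probe set. Their standard deviations within a genotype ran from 0.0184 to 0.112, with a median of 0.0581. Ctnnb1, which encodes β-catenin, read 12.53, 12.60 and 12.63 in wild type and 12.56, 12.61 and 12.63 in homozygous embryos, almost the same range. Its difference of 0.02 ± 0.0231 was the most precise of the 48, with an interval from -2.04% to 4.93% (adjusted p = 0.696 in limma). Apc, a scaffold of the complex that destroys β-catenin, read 11.11, 11.21 and 11.22 in wild type and 11.15, 11.19 and 11.36 in homozygous embryos, with homozygous 6 the highest, and differed by 0.03 ± 0.0351. Axin1, the other scaffold, differed by -0.01 ± 0.0424, and its 6 homozygous values lay within 9.66 to 9.70. Wild type 1 and 2 stood below them at 9.60 and 9.55 and the other 4 lay between 9.68 and 9.82, and without those 2 the difference was -0.07 ± 0.0311 (unadjusted p = 0.0535, adjusted p = 0.335 in limma). The arrays measure RNA, so the stability of the β-catenin protein, where the pathway acts, is not seen in these values.

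Axin2 and Nkd1, the feedback targets, were described in full because the pathway's output is commonly read on them. The rule for genes given in full did not cover them, and they were named after their values were seen. Their upstream sequences are shown because both hold letters of the core that Lef and Tcf factors bind. The 250 bases before the annotated start are printed 5′ to 3′ along the gene, from RefSeq on GRCr8, with each CTTTGAA or CTTTGAT in capitals. The Axin2 stretch is chr10:94398535-94398784 on the plus strand and the Nkd1 stretch is chr19:34722847-34723096 on the minus strand.
Axin2: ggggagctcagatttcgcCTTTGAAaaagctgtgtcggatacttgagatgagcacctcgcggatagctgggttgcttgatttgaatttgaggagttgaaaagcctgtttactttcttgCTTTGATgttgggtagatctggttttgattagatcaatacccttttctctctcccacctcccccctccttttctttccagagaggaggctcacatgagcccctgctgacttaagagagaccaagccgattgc
Nkd1: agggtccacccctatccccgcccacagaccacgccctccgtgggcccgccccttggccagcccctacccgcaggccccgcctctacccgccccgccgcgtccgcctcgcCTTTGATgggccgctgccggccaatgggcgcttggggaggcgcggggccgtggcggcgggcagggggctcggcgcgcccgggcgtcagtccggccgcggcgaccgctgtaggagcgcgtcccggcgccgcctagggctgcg

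The first base of the matches lay 232 and 132 bases before the start of Axin2 and 141 bases before that of Nkd1. Both strands were searched for the 2 motifs, which share all but their last letter. Of the 48 genes, 33 had an entry in the table of promoters, and 4 of those, or 12.1%, held a match: Axin2, Nkd1, Dkk1 and Wnt8a. Of all 33469 entries, some of which are further starts of a gene already listed, 7.58% held one. A match is a run of letters and was not measured here as a bound site.

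Axin2 read 8.87, 8.96 and 9.02 (lowest, median and highest) in wild type and 8.92, 8.96 and 9.13 in homozygous embryos. Homozygous 1 and 2 lay above every wild type value, at 9.08 and 9.13, and the other 4 lay among the wild type embryos. The difference was 0.04 ± 0.043, with an interval from -3.83% to 9.27% (adjusted p = 0.705 in limma). Nkd1, whose product binds Dishevelled, read 9.12, 9.27 and 9.45 in wild type and 9.31, 9.36 and 9.49 in homozygous embryos. All 6 homozygous embryos lay above its wild type median. Wild type 1 and 2, at 9.45 and 9.31, lay above the other wild type embryos, and wild type 1 lay among the highest of all.

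The difference of Nkd1 was 0.10 ± 0.0502 (unadjusted p = 0.0587, adjusted p = 0.351 in limma). Without wild type 1 and 2 it was 0.16 ± 0.0426, with an adjusted p of 0.0793. Nkd2, its relative, differed by -0.01 ± 0.0419. The other 2 genes with a motif match, Dkk1 and Wnt8a, had differences of 0.01 ± 0.0605 and 0.04 ± 0.074 from dim probe sets.

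**Figure D4:**
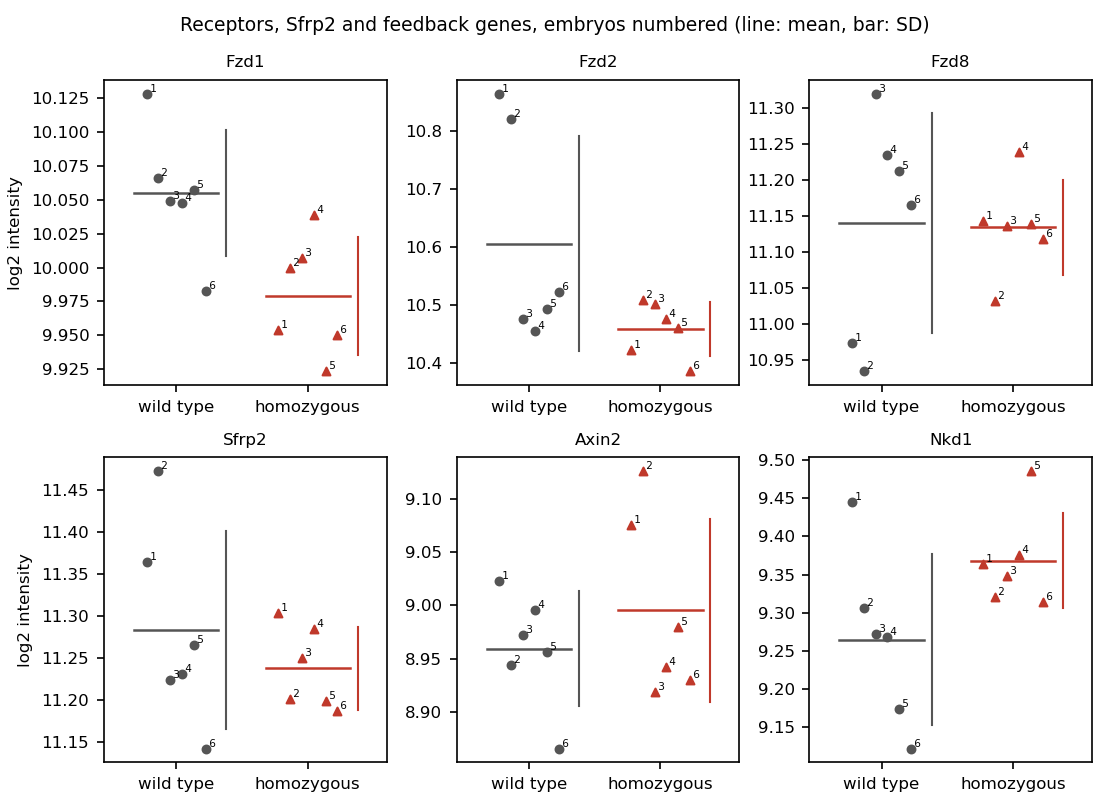
Log2 intensity (vertical axis, a scale of its own in each panel) of Fzd1, Fzd2, Fzd8, Sfrp2, Axin2 and Nkd1 in the numbered wild type (circles) and homozygous (triangles) embryos, with the mean (horizontal line) and SD (vertical bar) of each genotype. Wild type 1 and 2 stand above the other wild type embryos in Fzd1, Fzd2, Sfrp2 and Nkd1 and below them in Fzd8. The genotypes overlap in every panel.

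Of the Lef and Tcf factors by their brightest probe sets, Tcf7l1 came nearest to the threshold. Tcf7l1, the family member that mainly keeps target genes off when β-catenin is low, read 9.96, 10.00 and 10.05 in wild type and 10.04, 10.14 and 10.28 in homozygous embryos by its brightest probe set. Homozygous 6 lay just below wild type 3, and the other 5 homozygous embryos lay above every wild type value. The difference was 0.15 ± 0.0377, or 10.7% higher (95% interval 4.65% to 17.1%), with an adjusted p of 0.113 in limma and an exact permutation p of 0.00433, where 0.00216 is the smallest that 924 assignments allow. Without wild type 1 and 2 it was 0.13 ± 0.0414.

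The 3 probe sets of Tcf7l1 disagreed. The second brightest read 9.60, 9.69 and 9.75 in wild type and 9.80, 9.89 and 10.03 in homozygous embryos, with no overlap. It rose by 0.21 ± 0.0417 with an adjusted p of 0.0453 in limma, but passed in 6 of 24 other settings and in 2 of the 12 that left out 1 array, with adjusted p values from 0.0195 to 1. The third went the other way, at -0.54 ± 0.207 (adjusted p = 0.251): wild type 1 and 2 stood at 9.42 and 9.77, the other wild type embryos from 8.26 to 8.64 and homozygous embryos from 8.21 to 8.37.

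Without wild type 1 and 2 the third probe set differed by -0.17, and it passed in 1 of 24 other settings, the one that took the first component of the residuals into the fit (adjusted p = 0.00879). The mean of all 3 probe sets gave -0.06 for the gene. Which part of the transcript each probe set reads is not given in the sources used here.

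**Figure D5:**
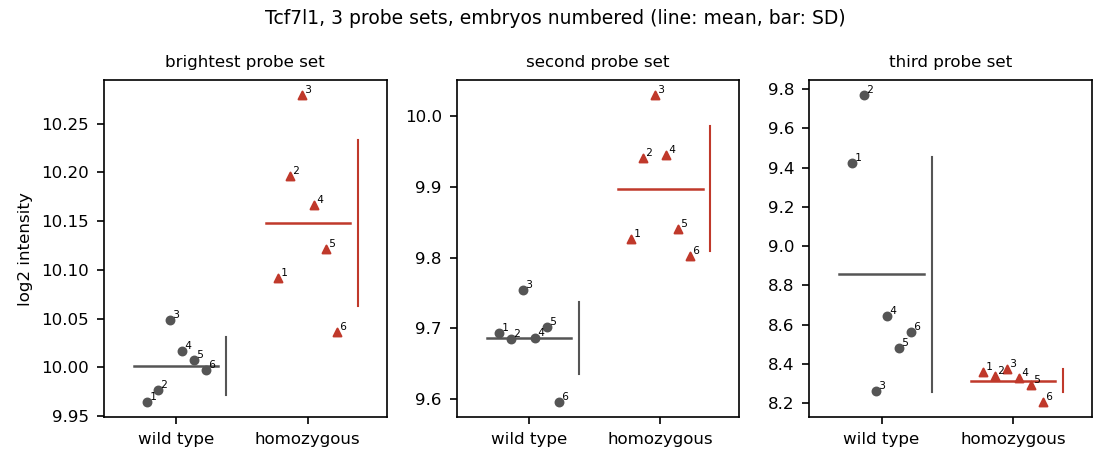
Log2 intensity (vertical axis, a scale of its own in each panel) of the 3 probe sets of Tcf7l1 in the numbered wild type (circles) and homozygous (triangles) embryos, with the mean (horizontal line) and SD (vertical bar) of each genotype. The homozygous embryos are higher in the first 2 panels, by 0.15 and 0.21, and in the third wild type 1 and 2 stand alone at 9.42 and 9.77.

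Lef1, an activating partner of β-catenin, read 8.88, 9.01 and 9.12 in wild type and 8.98, 9.06 and 9.09 in homozygous embryos, all within the wild type range. Its difference was 0.05 ± 0.0445 (adjusted p = 0.638 in limma), and that of Tcf7 was 0.01 ± 0.0427. Neither was past the threshold in any setting tried.

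The other genes of the pathway, from lists of ligand secretion, membrane proteins, cytoplasmic and nuclear proteins and common targets, gave 0 of 53 measured genes past the threshold, of 68 listed. At an unadjusted p under 0.05, 11 were higher and 3 lower. Of the 11, 9 were among the 24 cytoplasmic and nuclear genes, where 0 were lower, against 9.18% and 5.93% of all genes. Those with the smallest p were Btrc, which marks β-catenin for destruction, at 0.11 ± 0.0276 (adjusted p = 0.0914 in limma), Tle2, a corepressor of Tcf factors, at 0.15 ± 0.0407, and Dvl3, a Dishevelled protein that relays the signal from Frizzled, at 0.11 ± 0.0314. All 6 homozygous values lay above all wild type values in 3 of the 53 genes, where the genotypes did not overlap in 2.2% of all genes: Btrc, Tle2 and the kinase gene Gsk3a, at 0.06 ± 0.0238. With the first component of the residuals as a covariate, Btrc, Tle2, Dvl3 and the target Lbh passed. In that setting 1025 of all probe sets did, against 124. In the 9 cytoplasmic and nuclear genes, the lowest wild type value was often that of wild type 1 or 2. It was wild type 2 in Gsk3a, Csnk1d, Btrc, Tle1, Tle2, Tle3 and Ctnnd1, wild type 1 in Dvl3 and wild type 6 in Bcl9l. The differences of these genes without wild type 1 and 2 are not given here.

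Among 15 membrane genes, Reck, a coreceptor for Wnt7 ligands, was at -0.20 ± 0.074, Kremen2, a receptor for Dkk proteins, at 0.14 ± 0.0579, and Vangl2, a planar polarity protein, at 0.06 ± 0.0303. Among 11 common targets, Lbh was at 0.10 ± 0.0271 by its brighter probe set and -0.29 ± 0.105 by the other, Id2 at -0.15 ± 0.048 and Myc at -0.19 ± 0.0703. The targets did not share a direction: 7 of 11 lay above 0, with a median of 0.01. Of the 3 secretion genes, Wls, which carries Wnt proteins to the surface, was at -0.07 ± 0.0458, Porcn, which adds their lipid, at -0.10 ± 0.0802, and Notum, which removes it, at 0.09 ± 0.0773. Pygo2, a partner of β-catenin in the nucleus, was at 0.04 by its brighter probe set and at -0.21 ± 0.0459 by the other (adjusted p = 0.067).

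Marker genes of the tissue and of other cell types were examined. The 10 measured markers of the ganglionic eminence were all bright, from 10.36 to 12.80. Some markers of other cell types were as bright, such as the pallial Pax6 at 10.90 and the blood gene Hbe1 at 13.82. Brightness therefore does not check the tissue label. Among the eminence markers, Nkx2-1, of the medial eminence, was at 0.16 ± 0.0403 and Dlx5 at -0.18 ± 0.0804. Over all marker lists 0 of 50 measured genes of 65 passed, with 5 higher and 7 lower at an unadjusted p under 0.05, where 9.18% and 5.93% of all genes were, and the lowest adjusted p in limma was 0.0641, for the endothelial Cdh5 at 0.15 ± 0.0332. The genotypes did not overlap in Nkx2-1 and Cdh5, higher in homozygous embryos, and in the microglial P2ry12, lower. They did not overlap in 2.2% of all genes. Markers of the cortical hem, roof plate and choroid plexus, sources of several ligands, were measured for 9 of 11 genes. Of all genes dimmer than the median probe set, 76.1% lay above 0, with a median of 0.05. All 9 of these markers were dim and 8 lay above 0, with a median of 0.07. Their mean lay between 6.397 and 6.53 in wild type and between 6.39 and 6.65 in homozygous arrays, and the choroid plexus gene Ttr was at 0.17 ± 0.0582 with a mean level of only 6.16.

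Pallial markers, which belong to the cortex next to the eminences, lay lower in homozygous embryos for 5 of 6 measured genes of 10 listed, with a median of -0.18, led by Neurod6 at -0.36 ± 0.105 and Slc17a7 at -0.25 ± 0.0834. Their mean lay between 9.24 and 9.66 in wild type and between 9.23 and 9.39 in homozygous arrays. Among blood markers the differences were -0.49 for Hbb, -0.64 for Hbb-b1, -0.01 for Hbe1 and -0.04 for Alas2, with a median of -0.27, and the mean of the 4 measured of 8 genes lay between 10.08 and 10.88 in wild type, highest in wild type 2, and between 9.96 and 10.15 in homozygous arrays. Markers of meninges (7 of 8 measured), endothelium (8) and microglia (6) had medians of 0.05, 0.01 and -0.04, and the microglial P2ry12 was at -0.18 ± 0.0491. The part of these cell types in the differences of the Wnt genes was not tested.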

How the data were processed

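RNA of each embryo was hybridised to 1 Affymetrix rat Gene 1.0 ST array, per the series' design text. The deposited values are log2 intensities, a scale read from the values. Partek 6.4 and RMA are named, with no settings, in the submitters' processing notes. RMA tends to equalise arrays, so a shift shared by most genes may be lost. Arrays have no read depth, and their number limits precision. Of 29214 probe sets, 15310 had 1 annotated gene, 323 several and 13581 none. The probe set with the highest mean stood for each of the 14506 genes. All 48 Wnt genes matched RefSeq by Entrez number.

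The genotypes were compared 2-sided, without covariates, in every probe set. The fit used R 4.3.3 and limma 3.58.1, whose eBayes step let the variance follow the intensity. Exact permutation tests covered all 924 assignments of the 12 arrays. The fit was tested on simulated data. Genes given in full were those with an unadjusted p under 0.05, the 2 brightest of each role and those whose probe sets disagreed, with at most 3 per pathway list and 2 per marker list by smallest p. Other genes were named after their values were seen. The genes and lists were chosen with earlier results of these data known. Other settings were a replicate block, filters, scalings, variance models, covariates and arrays left out. Figures were drawn with matplotlib 3.10.9.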

Additional observations from a re-analysis of the deposited data

Results flagged for a closer look

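In 100 groups of 6 values (48 genes and the 2 further probe sets of Tcf7l1, in each genotype), 6 had an extreme value set apart from the rest by a gap larger, as a share of the group's range, than Dixon's 95% critical value, and chance gives about 1 in 20. Among ligands, Wnt10b was low in homozygous 1 at 6.94, with the next value at 7.18 and a gap of 0.716 of the range, and Wnt5a was high in wild type 2 at 8.61, with the next at 8.36 and a gap of 0.647. The receptor Fzd6 was low in wild type 6 at 7.56, with the next at 7.72 and a gap of 0.72. The inhibitor Sfrp4 was high in wild type 1 at 7.07, with the next at 6.90 and a gap of 0.774. The feedback gene Nkd1 was high in homozygous 5 at 9.49, with the next at 9.38 and a gap of 0.637. Lef1 was low in homozygous 1 at 8.98, with the next at 9.05 and a gap of 0.632. The 6 values came from 5 embryos.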

How the results depend on the processing

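In 25 other settings, the count of Wnt genes past the threshold was 0 except where the first residual component was a covariate, when Tcf7l1 passed (1 gene, adjusted p = 0.0385). The 48 genes had between 23 and 24 settings with their own probe set, and 21 kept their sign in all of them. Those with an unadjusted p under 0.05 in limma numbered 6, where 9.18% of all genes were higher and 5.93% lower. They numbered from 2 (without homozygous 5) to 11 (without wild type 6) when 1 array was left out, with 10 without homozygous 1. Without wild type 1 and 2 they numbered 4 (Fzd8, Sfrp4, Nkd1 and Tcf7l1), and 0 with a 1.2-fold minimum. The shares of all genes in these other settings are not given here, so the counts cannot be set against them. Ligands above 0 numbered 10 with the dim and bright covariate, and receptors below 0 from 4 (without homozygous 2) to 7 when 1 array was left out. Other pathway genes past the threshold numbered 1 with array weights (Btrc), 0 to 1 when 1 array was left out (Dvl3, without wild type 3), 1 without wild type 1 and 2 (Csnk1a1) and 4 with the residual component. Marker genes numbered 1 without dim probe sets, without variance moderation or with array weights (Cdh5 each time) and 4 with the residual component. Over all probe sets, from 4 to 200 passed when 1 array was left out and from 0 to 1025 in the other settings. The cause of these changes was not tested.

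Of 421 values of single named genes, 20 changed sign, in 8 genes, none past the threshold. With arrays centred on their medians Apc gave -0.00342, Ctnnb1 -0.018 and Rspo2 -0.0185, and Rspo2 gave -0.032 after quantile normalization and -0.0339 after cyclic loess. Without wild type 1 and 2 the values were -0.00587 for Ctnnb1, -0.00728 for Rspo2, 0.0223 for Sfrp2 and 0.0396 for Wnt7b. With the dim and bright covariate they were -0.044 for Rspo1, -0.0301 for Rspo2, 0.0297 for Sfrp2 and 0.044 for Wnt7b. The mean of all probe sets gave -0.0606 for Tcf7l1. Leaving out 1 array gave from -0.0467 to 0.0304 for Fzd8, from -0.0149 to 0.0368 for Rspo2 and from -0.0741 to 0.00673 for Wnt7b.

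The replicate numbers were not treated as pairs in the main comparison. Deviations of same-numbered embryos correlated between -0.0817 and 0.256, above 0.1 in 2 of 6 pairs. Of the 6 wild type arrays, 2 correlated best with the homozygous array of their own number. Whether the numbers stand for a pairing, such as a shared dam, was not tested. With a replicate block 0 Wnt genes passed by their brightest probe sets, and 18 of all probe sets did. Leaving out dim probe sets gave no count of ligands by direction or of genes by unadjusted p, and the mean over probe sets gave none over all probe sets. No background measure was used here, so how far the dim ligands stand above it is not known.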
